A study of Mus musculus with 12 samples.

Results

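Myogenic regulators and fusion genes are the transcription factors that commit a cell to skeletal muscle, and the membrane proteins that merge the committed cells into fibres. The 8 genes described here, Pax3, Pax7, Myf5, Myod1, Myog, Myf6, Mymk and Mymx, were taken by gene identifier from a count table of 52636 features. They were picked with their levels in these libraries already known, so those levels are given as a description. Nothing is read from their calls in the fit over all genes. In the embryo, Pax3 and Pax7 mark muscle progenitors, Myf5 and Myod1 commit them to the lineage, and Myog and Myf6 drive terminal differentiation. Mymk (Myomaker) and Mymx (Myomixer) act at the surface of the differentiating myoblast, where membranes first mix and a fusion pore then opens. The salivary gland makes no skeletal muscle of its own, but develops beside jaw muscles, whose progenitors arise in head mesoderm without Pax3, and beside the tongue, whose progenitors come from somites and use Pax3.

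RNA was sequenced from mouse salivary glands taken at E13.5 (embryonic day) and cultured for 2 days. Wild-type glands received SU5402, an inhibitor of fibroblast growth factor receptor kinases, at 2.5 µM (FGFRi, 3 libraries) or its solvent (DMSO, 3 libraries). Untreated glands carried a homozygous (HOM, 2 libraries) or heterozygous (HET, 2 libraries) deletion of Fgfr2b under K14Cre, a Cre driven by a keratin promoter active in epithelium, or were wild type (WT, 2 libraries). HET and WT are the littermate controls of HOM. K14Cre thus places the deletion in epithelium, whereas SU5402 is not restricted to a cell type.

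Libraries held 6043701 to 22322182 counts, of which a single feature took between 10.8 and 21.5%. Levels below are CPM, counts scaled to a common library size with TMM, a factor that equalises the bulk of the genes between libraries, and 3 counts correspond to 0.124 to 0.55 CPM depending on the library. Intervals and floors cover counting error only. The labels do not say whether libraries of a group came from separate embryos, so the spread between them may be technical. Total Fgfr2 was at 89.2 and 94.4 CPM in HOM, against 86.2 to 101 CPM in HET and WT, but a gene-level count does not separate the deleted isoform from the other. Xist, the transcript of an inactive X chromosome, was at 845 and 1060 CPM in HOM and at most 4.1 CPM in all 4 HET and WT libraries. HOM and its controls therefore also differ in sex, and sex and genotype cannot be told apart. Of the other libraries, only DMSO 2 had low Xist, at 2.24 CPM.

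Summed over the 8 genes, the level was far higher in FGFRi glands than in DMSO glands, and was also high in HOM and HET glands while close to absent in WT. The sum was 40.7, 8.96 and 48.5 CPM in FGFRi libraries 1 to 3, against 1.11, 5.1 and 5.58 CPM in DMSO libraries 1 to 3. Every FGFRi library lay above every DMSO library, although the lowest FGFRi library was much nearer to DMSO than to the other FGFRi libraries. The means were 32.7 ± 20.9 CPM in FGFRi and 3.93 ± 2.45 CPM in DMSO (SD, n = 3 each), a ratio of 8.32 or 3.06 on the log2 scale. Without FGFRi 2 the log2 ratio was 3.5, and without DMSO 1 it was 2.62.

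In the deletion series the sum was 22.6 and 23.4 CPM in HOM, against 11.6 and 18.7 CPM in HET and 0.732 and 0 CPM in WT. HOM was above both kinds of control, with HET 1 about midway between HOM and WT and HET 2 nearer to HOM. The mean of HOM, 23.0 ± 0.524 CPM (SD, n = 2), was 1.52 times that of HET, 15.1 ± 5.0 CPM (SD, n = 2), and 62.8 times that of WT, 0.366 ± 0.518 CPM (SD, n = 2). Joined, the 4 littermate controls averaged 7.74 ± 9.0 CPM, and the ratio of HOM to them, 2.97, mixes these unlike groups. Not 1 count of any of the 8 genes fell in WT 2, whose floor of 3 counts is 0.324 CPM, and WT 1 held 10 counts over 3 of the genes. DMSO glands, also wild type, held 7, 98 and 34 counts, with a mean 10.7 times that of WT. In bulk RNA, fewer muscle cells and less muscle RNA per cell cannot be told apart.

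**Figure D1:**
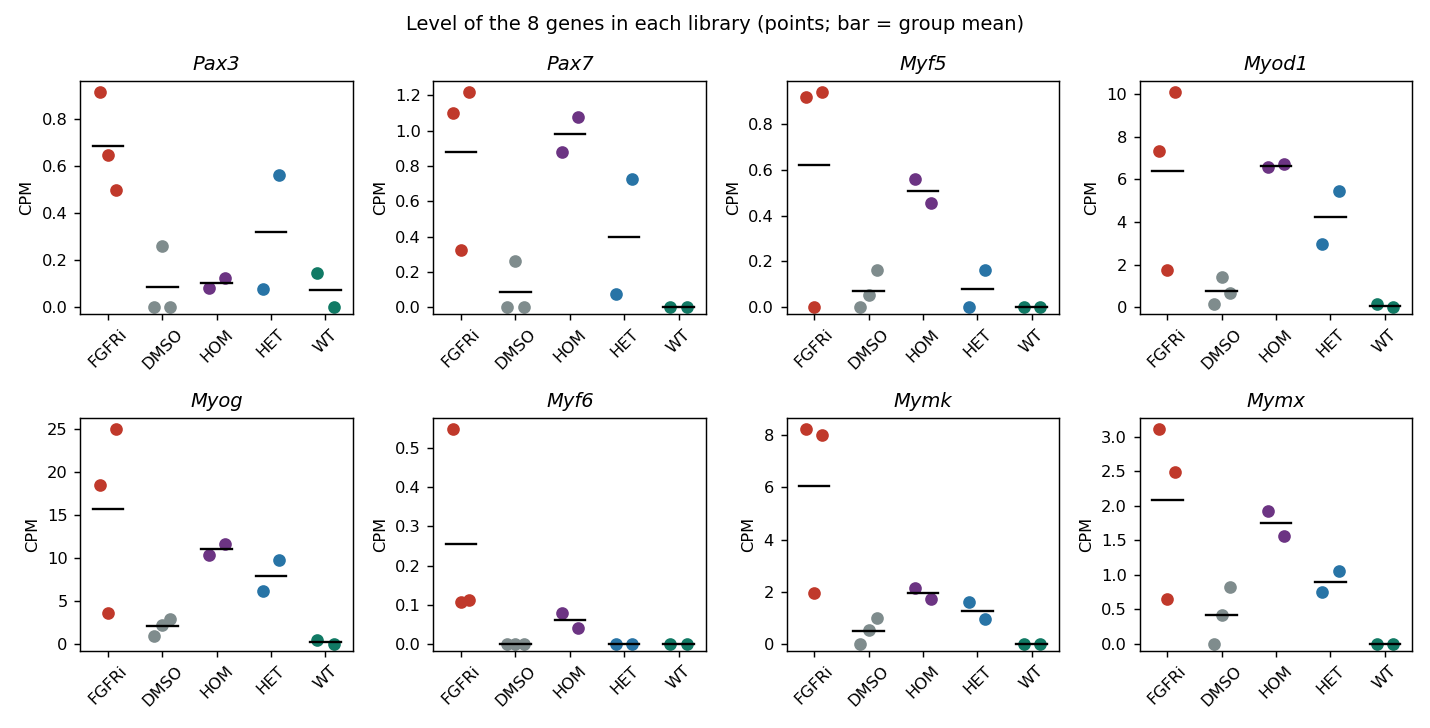
Level of each of the 8 genes in every library, in TMM-scaled CPM, by group, with 1 point per library and a bar at the group mean. Myog reaches 25.1 CPM in FGFRi 3 and 11.7 CPM in HOM 2, while every WT library lies at or below 0.439 CPM in all 8 panels.

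Pax3 and Pax7 encode the paired-box factors of muscle progenitors, and both had few counts. Pax7 had 6, 3 and 22 counts in FGFRi, against 0, 5 and 0 counts in DMSO, which is 0.881 ± 0.486 CPM in FGFRi and 0.0867 ± 0.15 CPM in DMSO (SD, n = 3 each). The lowest FGFRi library, at 0.324 CPM, was just above DMSO 2 at 0.26 CPM. Without the inhibitor, Pax7 had 11 and 26 counts in HOM, against 1 and 9 counts in HET and 0 counts in both WT libraries. Here HOM 1 and HOM 2, at 0.88 and 1.08 CPM, were within the FGFRi range of 0.324 to 1.22 CPM. Relative to WT the HOM level was at least 7.7-fold higher, with WT set to its floor of 3 counts over the group, and relative to HET it was 2.45 times as high (counts pooled: 2.59, 95% interval 1.26 to 5.83).

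Pax3 had 5, 6 and 9 counts in FGFRi, against 0, 5 and 0 counts in DMSO. In HOM it had 1 and 3 counts, against 1 and 7 counts in HET and 2 and 0 counts in WT. At these counts the HOM to HET ratio of Pax3, 0.35 with a 95% interval of 0.0771 to 1.31, includes equality. The HOM mean, 0.102 CPM, was below the HET mean of 0.319 CPM, which rests on HET 2 at 0.563 CPM, and above the WT mean of 0.0732 CPM, with a pooled HOM to WT ratio of 1.25 (0.179 to 13.8). Its FGFRi mean, 0.688 ± 0.213 CPM (SD, n = 3), was 6.74 times the HOM mean of 0.102 ± 0.0312 CPM (SD, n = 2), without overlap between the libraries.

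Myf5 and Myod1 are the basic helix-loop-helix (bHLH) factors of commitment, and they sat at very different levels. Myod1 was at 7.34, 1.73 and 10.13 CPM in FGFRi, against 0.159, 1.4 and 0.657 CPM in DMSO. The groups did not overlap, but FGFRi 2 and DMSO 2 were close. Means of 6.4 ± 4.28 CPM in FGFRi and 0.74 ± 0.627 CPM in DMSO (SD, n = 3 each) gave a ratio of 8.64, and the fitted log2 change was 2.80 ± 0.587 (SE). That fitted change was 2.18 without FGFRi 3 and 4.0 without DMSO 2. In the deletion series Myod1 was at 6.56 and 6.7 CPM in HOM, against 2.95 and 5.47 CPM in HET and 0.146 and 0 CPM in WT. The HOM mean, 6.63 ± 0.102 CPM (SD, n = 2), was near the FGFRi mean and 1.57 times that of HET. Because WT held only 2 counts of Myod1, its ratio of pooled counts between HET and WT, 47.8, has an interval of 12.9 to 400.

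Myf5 had 5, 0 and 17 counts in FGFRi, against 0, 1 and 1 counts in DMSO. FGFRi 2, without a count, lay inside the DMSO range, so the groups overlapped. In HOM it had 7 and 11 counts, against 0 and 2 counts in HET and 0 counts in both WT libraries. The HOM libraries, at 0.455 and 0.56 CPM, were the highest of the deletion series, and the HOM to HET ratio of pooled counts was 6.29 with an interval of 1.51 to 55.9. Its ratio of the HOM mean to the HET mean, 6.31, was the highest among the 7 genes for which one can be given.

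Myog and Myf6 are the bHLH factors of terminal differentiation. Per kilobase of exon, Myog (myogenin) had the highest level of the 8 genes in every library that held any of their counts. The start of the Myog gene is shown because it carries textbook binding letters of muscle transcription factors, beside that of Myf5, a commitment gene at a far lower level. Each window runs from 250 bases before to 50 bases after the start in RefSeq (GRCm38.p6). Myog is at chr1:134289754-134290053 on the plus strand, and Myf5 at chr10:107486085-107486384 on the minus strand. Capitals mark E-boxes (CANNTG), the letters read by bHLH factors, and the MEF3 core (TCAGGTT), a motif of muscle promoters, searched on both strands.
Myog: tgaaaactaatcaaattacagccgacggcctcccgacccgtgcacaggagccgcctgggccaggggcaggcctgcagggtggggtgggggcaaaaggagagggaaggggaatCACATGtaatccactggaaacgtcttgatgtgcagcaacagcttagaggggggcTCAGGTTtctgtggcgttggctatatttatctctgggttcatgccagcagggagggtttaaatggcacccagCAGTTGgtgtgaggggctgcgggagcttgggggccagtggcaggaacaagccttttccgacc
Myf5: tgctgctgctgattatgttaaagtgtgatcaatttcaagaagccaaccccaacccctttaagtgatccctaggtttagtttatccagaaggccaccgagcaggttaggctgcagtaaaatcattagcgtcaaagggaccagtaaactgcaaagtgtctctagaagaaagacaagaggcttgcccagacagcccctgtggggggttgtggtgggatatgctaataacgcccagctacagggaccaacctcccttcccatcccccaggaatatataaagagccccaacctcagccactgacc
The Myog window holds the E-box CACATG at -138, the E-box CAGTTG at -12 and the MEF3 core at -84, counted to the first base of each from the start site. No capital stands in the Myf5 window or in that of Pax7, the other member found in the promoter table. An E-box occurs in 72.3% of the 32851 promoter windows of the same length, and a MEF3 core in 4.07%. The matches describe letters and no binding was measured.

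Myog was at 18.5, 3.56 and 25.1 CPM in FGFRi, against 0.955, 2.19 and 2.96 CPM in DMSO. The lowest FGFRi library, FGFRi 2, was little above the highest DMSO library, and the other FGFRi libraries were several times higher. Means of 15.7 ± 11 CPM in FGFRi and 2.03 ± 1.01 CPM in DMSO (SD, n = 3 each) gave a ratio of 7.74, and the fitted log2 change was 2.95 ± 0.558 (SE). In the deletion series Myog was at 10.4 and 11.7 CPM in HOM, against 6.13 and 9.73 CPM in HET and 0.439 and 0 CPM in WT. HET 2 came close to HOM 1, and HOM averaged 1.39 times HET. Between HET and WT, which held 202 and 6 counts in all, the ratio of pooled counts was 30.1 with an interval of 13.6 to 82.9.

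Myf6, a late factor of muscle fibres, had the fewest counts. It had 3, 1 and 2 counts in FGFRi, against 0 counts in all 3 DMSO libraries, and 1 count in each HOM library, against 0 counts in all HET and WT libraries. With DMSO at a floor of 3 counts over the group, FGFRi was at least 1.93-fold higher. No ratio is given for HOM, whose 2 counts are under the floor.

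The fusion genes both had their highest mean in FGFRi. Mymk, which is needed for the first mixing of the membranes, was at 8.26, 1.94 and 8.02 CPM in FGFRi, against 0, 0.52 and 0.985 CPM in DMSO. All FGFRi libraries exceeded all DMSO libraries, and the ratio of means, 12.1, was the highest among the 7 genes with one. Its fitted log2 change was 3.56 ± 0.635 (SE). Among the untreated groups Mymk was at 2.16 and 1.74 CPM in HOM, against 1.59 and 0.965 CPM in HET and 0 CPM in both WT libraries. HOM was 1.53 times HET, with a counting interval of the pooled ratio, 0.952 to 2.29, that includes equality. Mean Mymk was 3.12 times as high in FGFRi as in HOM, but FGFRi 2 lay between the HOM libraries.

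Mymx, a short protein that opens the fusion pore, was at 3.12, 0.648 and 2.49 CPM in FGFRi, against 0, 0.416 and 0.821 CPM in DMSO. FGFRi 2 was below DMSO 3, so the groups overlapped. The ratio of means was 5.06 and the fitted log2 change 2.29 ± 0.667 (SE). Untreated glands had Mymx at 1.92 and 1.57 CPM in HOM, against 0.757 and 1.05 CPM in HET and 0 CPM in both WT libraries. HOM was 1.94 times HET, and against the WT floor HOM was at least 12.9-fold and HET at least 6.85-fold higher.

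In the fit over all genes, Pax7, Myod1, Myog, Mymk and Mymx passed the filter on low counts, and Pax3, Myf5 and Myf6 did not. Those 5 passed only through the groups in which they are high. In FGFRi against DMSO, 4 of the 5 were called higher at an adjusted p under 0.05, where 9.73% of the 15859 genes tested were called higher and 20.5% in either direction. In HOM against WT and HET, all 5 were called higher in edgeR, where 3.44% were called higher and 5.88% in either direction. DESeq2 called 4 of the 5 higher in FGFRi against DMSO and 3 in HOM against WT and HET. The members were picked on these same values, so nothing is read from the counts of calls, here or in the comparisons below. Pax7 was the member not called in the FGFRi comparison, with a fitted log2 change of 2.53 ± 0.886 (SE), which was 2.05 without FGFRi 3 and 6.44 without DMSO 2. Between HOM and HET, edgeR called 0 of the 5, with 0 at an unadjusted p under 0.05 and 0 by DESeq2, where 1.49% of tested genes were called in either direction and 0.618% as higher. The mean was higher in HOM than in HET for 7 of the 8 genes and lower for Pax3. HOM minus HET in the same fit was 1.31 ± 0.823 for Pax7, 0.936 ± 0.669 for Mymx, 0.659 ± 0.553 for Myod1, 0.583 ± 0.665 for Mymk and 0.485 ± 0.541 for Myog (log2 ± SE). Between HOM and WT, edgeR called all 5 higher, where 7.56% of tested genes were called, 4.5% as higher and 3.06% as lower. DESeq2 called 4 of the 5 there. Between HET and WT, edgeR called Myod1 and Myog higher, where 1.22% were called, 0.851% as higher and 0.372% as lower. All 5 were higher there at an unadjusted p under 0.05 in edgeR, and DESeq2 called 4. Between DMSO and WT, edgeR called 0 of the 5, with 4 higher at an unadjusted p under 0.05 and 0 by DESeq2, where 2.26% were called, 1.27% as higher and 0.984% as lower. These comparisons share the HOM, HET or WT libraries with one another.

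Per kilobase of exon, levels of different genes can be set side by side. By group mean, FGFRi and HOM did not rank the genes alike. In FGFRi the mean level was 10.5 CPM per kb for Myog, 4.02 for Mymk, 3.44 for Myod1 and 2.03 for Mymx. All 4 ranges overlapped, since FGFRi 2 was low for each, and in FGFRi 3 Myod1, at 5.44, was above Mymk, at 5.31. The next genes were Myf5 at 0.297, Myf6 at 0.203, Pax7 at 0.15 and Pax3 at 0.111 CPM per kb, and their ranges also overlapped one another. In HOM the order was Myog at 7.38, Myod1 at 3.56, Mymx at 1.7 and Mymk at 1.29 CPM per kb, and none of these 4 ranges overlapped. Myod1 in HOM ranged from 3.52 to 3.6 CPM per kb, Mymx from 1.53 to 1.87 and Mymk from 1.15 to 1.43. The order of the fusion genes in HOM rests on 24 and 38 counts of Mymx and 27 and 42 counts of Mymk. By counts alone Mymk was the higher, so this order comes from the exon lengths, 1027 bases for Mymx and 1511 for Mymk. Below them stood Myf5 at 0.244, Pax7 at 0.167, Myf6 at 0.048 and Pax3 at 0.0165 CPM per kb. In HET, Myog was at 5.3, Myod1 at 2.26, Mymx at 0.877 and Mymk at 0.845 CPM per kb, the ranges of the fusion genes overlapping.

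A ratio of counts within a library does not depend on its depth or scaling. For each count of Mymx there were 2.65, 3.0 and 3.22 counts of Mymk in FGFRi, against 1.25 and 1.2 counts in DMSO 2 and DMSO 3, the DMSO libraries that held either gene. In HOM the ratio was 1.12 and 1.11, against 2.1 and 0.923 in HET. The FGFRi libraries were above all others, including FGFRi 2, whose absolute levels were low. Pooled over libraries, the ratio was 3.06 (95% interval 2.32 to 4.08) in FGFRi, 1.23 (0.555 to 2.78) in DMSO, 1.11 (0.778 to 1.59) in HOM and 1.43 (0.817 to 2.56) in HET. The DMSO and HET intervals overlap that of FGFRi, and the HOM interval does not. These intervals leave out the spread between libraries, so their overlap does not measure a difference between groups. FGFRi 3 alone gave 145 of the 208 Mymk counts pooled in FGFRi.

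Mymk and Myod1 were also set against Myog. Each count of Myog came with 0.446, 0.545 and 0.32 counts of Mymk in FGFRi, against 0.238 and 0.333 in DMSO 2 and DMSO 3, while DMSO 1 had no Mymk beside 6 counts of Myog. Untreated glands had 0.208 and 0.149 in HOM, against 0.259 and 0.0992 in HET. All FGFRi libraries were above HOM and HET, but FGFRi 3 was below DMSO 3. Pooled, this was 0.354 (0.301 to 0.416) in FGFRi, 0.242 (0.131 to 0.423) in DMSO, 0.167 (0.128 to 0.217) in HOM and 0.163 (0.109 to 0.237) in HET. Myod1 per Myog was 0.396, 0.485 and 0.404 in FGFRi, against 0.167, 0.643 and 0.222 in DMSO, and 0.631 and 0.574 in HOM, against 0.481 and 0.562 in HET. The FGFRi range lay inside that of DMSO, FGFRi 2 was above HET 1, and both HOM libraries were above all FGFRi libraries. Pooled, it was 0.407 (0.349 to 0.474) in FGFRi, 0.485 (0.308 to 0.75) in DMSO, 0.592 (0.503 to 0.696) in HOM and 0.53 (0.415 to 0.673) in HET. Mymx per Myog was 0.116 in FGFRi, 0.197 in DMSO, 0.15 in HOM and 0.114 in HET, with overlapping intervals. Pax7 per Myog lay between 0.0495 in HET and 0.0898 in HOM. FGFRi and HOM share no library, but they belong to different experiments with controls of their own.

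**Figure D2:**
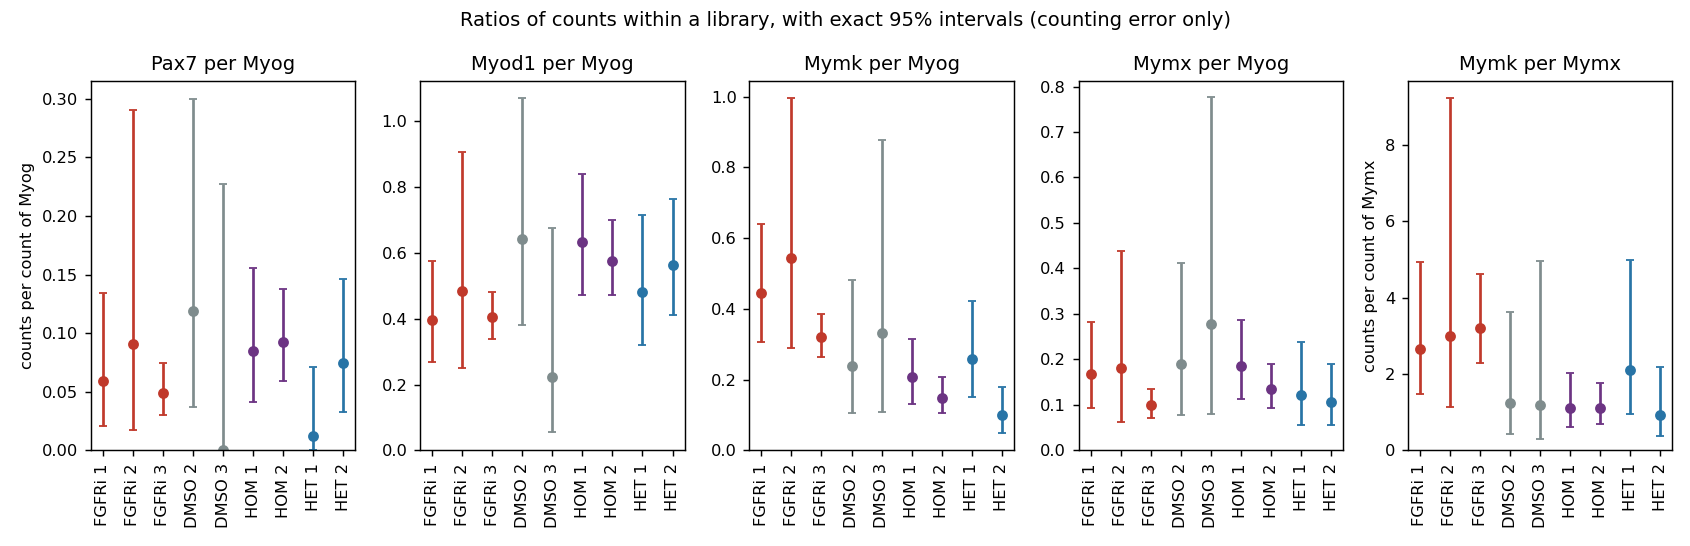
Counts of Pax7, Myod1, Mymk and Mymx per count of Myog, and of Mymk per count of Mymx, in each library with at least 18 counts of Myog. Points are ratios and bars exact 95% intervals for counting error. Mymk per Mymx is 2.65 to 3.22 in the 3 FGFRi libraries and 0.923 to 2.1 in the rest.

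The members were next set beside 20 genes of differentiated muscle (sarcomere, calcium release and creatine kinase genes), chosen with earlier results of these data known. Their summed level was 924, 241 and 1030 CPM in FGFRi, against 36.0, 88.5 and 114 CPM in DMSO. In the deletion series it was 259 and 285 CPM in HOM, against 138 and 254 CPM in HET and 26.7 and 19.5 CPM in WT. FGFRi 2 was again the lowest of its group and close to HOM. In the fit, 18 of the 20 were tested in each comparison. All 18 rose in FGFRi against DMSO, with a median log2 change of 3.54 where that of all genes was -0.015, and 10 rose in HOM against WT and HET, with a median of 2.26. Against WT alone 16 of the 18 rose in HOM, with a median of 3.96, but against HET alone edgeR called 0, with 0 at an unadjusted p under 0.05 and 0 by DESeq2, and the median was 0.519. WT 2, without a count of the 8 members, still had 180 counts of the muscle list, with 8 of its 20 genes at 0, among them Actc1, Actn2 and Myl1.

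Relative to the muscle list, the members had more counts in HOM and HET than in the other 8 libraries. For 1000 counts of the muscle list there were 44.1, 37.1 and 46.9 counts of the 8 members in FGFRi, against 31.0, 57.6 and 49.1 counts in DMSO. There were 87.5 and 82.0 in HOM, against 83.8 and 73.6 in HET and 27.5 and 0 in WT. FGFRi lay within the range of DMSO, and the HOM and HET ranges overlapped, while both HOM and HET lay above every FGFRi and DMSO library. The 2 experiments were not compared by a test.

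**Figure D3:**
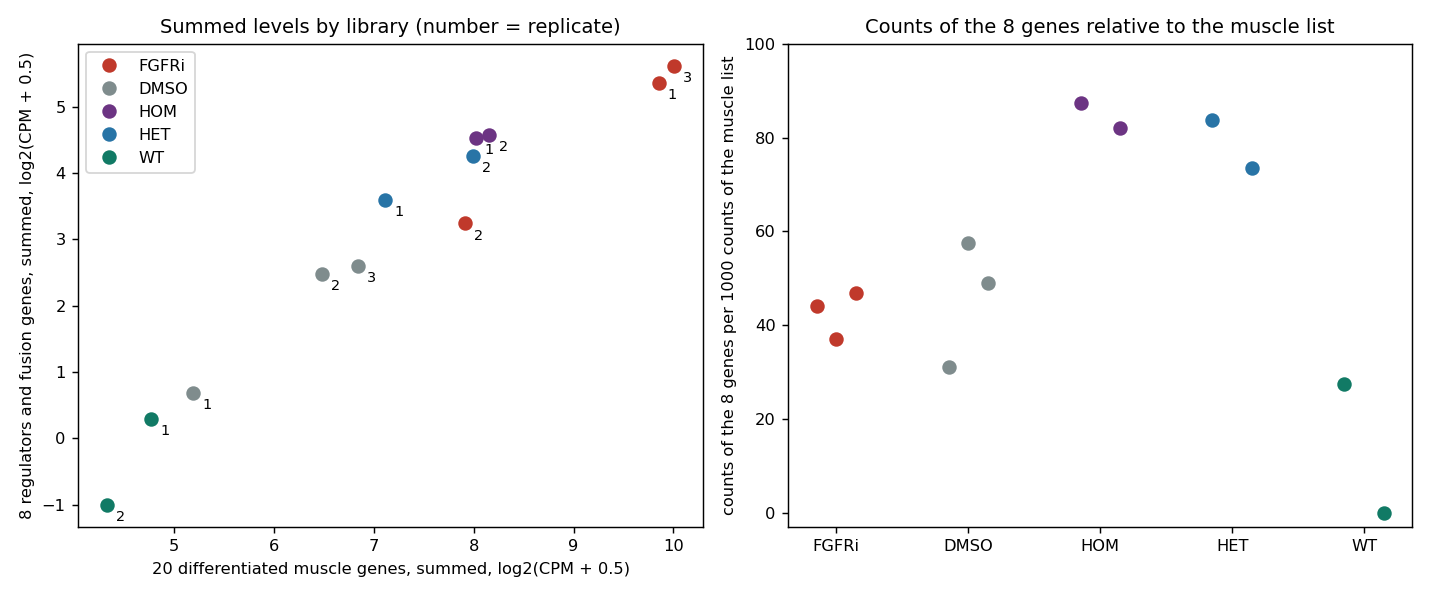
Summed CPM of the 8 members against summed CPM of the 20 genes of differentiated muscle, both as log2(CPM + 0.5), with 1 point per library (left), and member counts for 1000 muscle counts by group (right). HOM and HET libraries have 73.6 to 87.5 member counts for 1000 muscle counts, and FGFRi libraries 37.1 to 46.9.

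**Figure D4:**
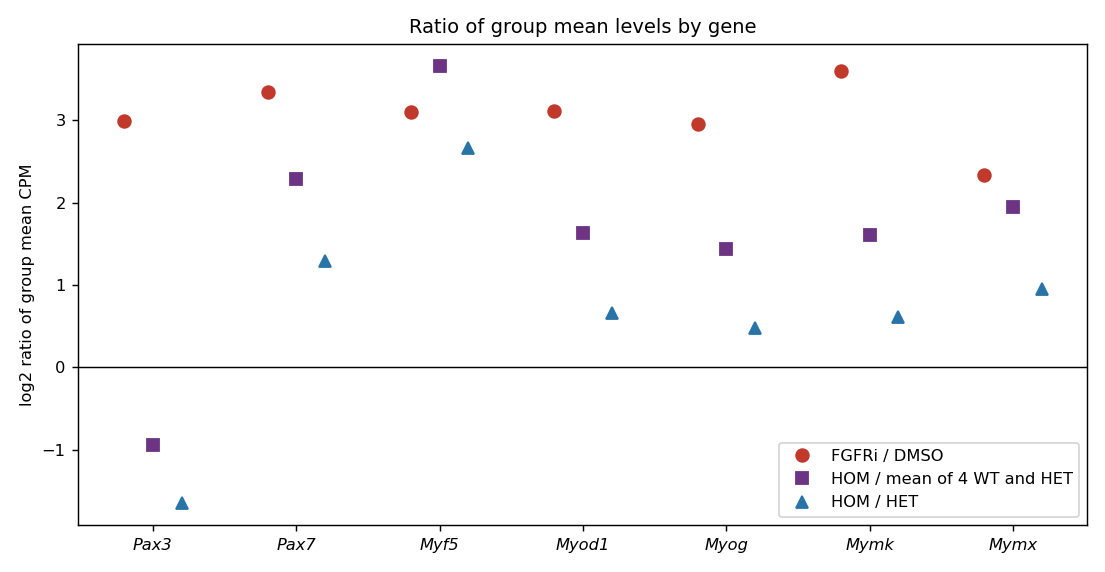
Ratio of mean CPM of each member in FGFRi over DMSO, in HOM over the 4 WT and HET libraries and in HOM over HET, as log2 ratios. Myf6 is not drawn. Mymk is at 3.60 in FGFRi over DMSO and 0.609 in HOM over HET, and Pax3 in HOM over HET is at -1.65.

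Marker lists of other tissues were read in the same libraries. The sum of 15 mesenchyme genes was 3750 to 5200 CPM in FGFRi, against 2260 to 2430 CPM in DMSO, and 3960 to 4110 CPM in HOM, against 3510 to 3870 CPM in HET and 2490 to 2600 CPM in WT. In FGFRi against DMSO 13 of the 15 rose, and 9 rose in HOM against WT and HET. The sum of 15 epithelium genes was 2230 to 2410 CPM in FGFRi, against 2910 to 3340 CPM in DMSO, and 1970 to 2060 CPM in HOM, against 2480 to 2700 CPM in HET and 2900 to 3040 CPM in WT. Of these, 13 fell and 1 rose in FGFRi, and 7 fell in HOM. The sum of 8 endothelium genes was 6.75 to 9.83 CPM in FGFRi, against 4.93 to 7.88 CPM in DMSO, and 19.0 to 21.8 CPM in HOM, against 14.2 to 26.4 CPM in HET and 8.97 to 9.52 CPM in WT. The sum of 7 erythroid genes was 1.65 to 3.02 CPM in FGFRi, against 1.91 to 5.58 CPM in DMSO, and 13.7 to 15.3 CPM in HOM, against 5.6 to 9.25 CPM in HET and 1.76 to 6.48 CPM in WT. The mesenchyme sum was thus higher and the epithelium sum lower in both FGFRi and HOM than in their controls, while the erythroid sum was higher in HOM and overlapped DMSO in FGFRi. The part of these differences in the members' levels was not tested.

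Heart and smooth muscle were set beside skeletal muscle. Of 8 heart genes, Myl7 was at 0 counts in all FGFRi and HOM libraries and Nppa at 0 in 2 of the 3 FGFRi libraries. Every heart gene but Myl7, Nppa included, had counts in both HOM libraries. The list as a whole holds genes that embryonic skeletal muscle also uses. It summed to 14.1 to 36.5 CPM in FGFRi, against 4.89 to 9.69 CPM in DMSO. In HOM it summed to 12.3 to 13.3 CPM, against 9.69 to 15.6 CPM in HET and 4.76 to 5.64 CPM in WT. Of its 4 tested genes, Tnnt2 and Nkx2-5 rose and 0 fell in FGFRi in edgeR, with 4 higher and 0 lower at an unadjusted p under 0.05, and 2 and 0 by DESeq2. The sum of 8 smooth muscle genes was 209 to 292 CPM in FGFRi, against 293 to 373 CPM in DMSO, and 249 to 269 CPM in HOM, against 251 to 301 CPM in HET and WT. The smooth muscle sum was lower in FGFRi than in DMSO, where the members were higher.

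By the likeness of log2 CPM over the 12 libraries, the genes closest to the mean of the 5 members in the fit were muscle genes for the most part. Des, the muscle intermediate filament, had a Pearson r of 0.991, Arpp21 0.987, Chrna1, the alpha subunit of the muscle acetylcholine receptor, 0.986, and Cdh15, the M-cadherin of myoblasts, 0.982. Jph2, Synpo2l, Tnnt1 and Ryr1 followed at 0.976 to 0.981. The nearest gene was Cdh15 for Myod1 (0.98), Chrna1 for Myog (0.981), Jph2 for Pax7 (0.956), Des for Mymx (0.974) and Mylpf, a fast myosin light chain, for Mymk (0.983). Between members, r ran from 0.808 for Pax7 with Mymk to 0.974 for Myod1 with Myog. All points share the libraries' makeup, and r is given as a description.

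The 6 lists of other myogenic genes, 61 in all, were then read from the fit over all genes. The lists were chosen with earlier results of these data known. Of their 50 tested genes, 24 rose and 6 fell in FGFRi against DMSO, with backgrounds of 9.73% higher and 10.7% lower, and the median log2 change was 0.951. In HOM against WT and HET, 12 rose and 3 fell, with backgrounds of 3.44% and 2.44%, and the median was 0.346. Of the 30 FGFRi calls, 19 held when each library was left out in turn, against 1 of the 15 HOM calls, that of Zeb1. Without HOM 2 alone, the number that rose was 1. Adjusted p-values below are from edgeR's quasi-likelihood test, with n = 3 against 3 in FGFRi and DMSO, and 2 against 4 in HOM and its controls.

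Upstream regulators of head muscle did not move one way. Of 7 tested, 3 rose and 3 fell in FGFRi. Eya4, a transcriptional co-activator of muscle progenitors, rose to 5.0 CPM in FGFRi, against 1.04 CPM in DMSO (log2 change 2.28 ± 0.432, adjusted p = 0.00187 in edgeR). Eya1, of the same family, rose by 1.42 (adjusted p = 0.0204 in edgeR), a call that did not hold without FGFRi 3 or without DMSO 2. Six4 fell by 0.396 and Six2 by 0.333 (adjusted p of 0.00348 and 0.0149 in edgeR), the call of Six2 being lost without FGFRi 1, FGFRi 3 or DMSO 2. Scaling to the epithelium genes, which moves the median of all genes by 0.419, turned Six4 to 0.0226 and Six2 to 0.0844. In HOM, edgeR called 0 of the 7, with 0 at an unadjusted p under 0.05 and 0 by DESeq2.

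Among 8 tested progenitor genes, Cdh15 and Heyl, a target of Notch signalling, rose in FGFRi. Cdh15 was at 9.36, 3.02 and 11.6 CPM in FGFRi, against 0.159, 1.09 and 0.657 CPM in DMSO, with all FGFRi libraries above all DMSO libraries (log2 change 3.36 ± 0.542, adjusted p = 5.96e-04 in edgeR). Heyl rose by 0.982, but the call was lost without any 1 of 4 libraries (FGFRi 1, FGFRi 3, DMSO 1 or DMSO 2). Fgfr4, an FGF receptor of myoblasts, averaged 1.92 CPM in FGFRi and 0.743 CPM in DMSO, and its difference of 1.3 ± 0.57 did not pass (adjusted p = 0.124 in edgeR). In HOM, Cdh15 was at 4.72 and 6.62 CPM, against 2.2 and 4.9 CPM in HET and 0.293 and 0.108 CPM in WT. Heyl rose by 1.55 ± 0.244, Cdh15 by 2.68 ± 0.545 and Megf10, a receptor of muscle progenitors, by 1.86 in HOM, at adjusted p of 0.00178, 0.00932 and 0.027 in edgeR. None of these calls held without HOM 2, and that of Megf10 was lost without any 1 of 5 of the 6 libraries, all but HET 2. Against HET alone the changes of Heyl, Cdh15 and Megf10 were 1.02, 0.697 and 1.09 (adjusted p of 0.103, 0.646 and 0.404 in edgeR). Met, the receptor of migrating progenitors, which epithelium also uses, fell by 0.461 in HOM (adjusted p = 0.0487 in edgeR), a call lost without any 1 of 5 of the 6 libraries, all but HET 2, and was at 0.00495 with scaling to the epithelium genes.

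Of 6 tested partners of the bHLH factors, 3 rose and 1 fell in FGFRi. Mef2c, which acts with them on muscle genes, rose to 41.7 CPM in FGFRi, against 14.6 CPM in DMSO (log2 change 1.48 ± 0.246, adjusted p = 7.4e-04 in edgeR). Tcf4, an E protein that pairs with them, rose by 0.374 (adjusted p = 0.00294 in edgeR), and Tcf12 by 0.206 (adjusted p = 0.0365). Tcf3, another E protein, fell by 0.236 (adjusted p = 0.0314 in edgeR) and turned to 0.181 with scaling to the epithelium genes, and the calls of Tcf12 and Tcf3 were lost when any of several single libraries was left out, FGFRi 3 among them. In HOM, edgeR called 0 of the 6, with 2 higher at an unadjusted p under 0.05 and 0 by DESeq2.

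Of 13 tested inhibitors of the myogenic bHLH factors, 7 rose, 1 fell and 5 did not pass in FGFRi. Zeb1, a repressor that competes for E-boxes, rose by 1.16 ± 0.126 (adjusted p = 2.8e-05 in edgeR), Id3, which sequesters E proteins, by 1.47 ± 0.189 (1.11e-04), and Twist1, also a mesenchyme gene of the list above, by 1.40 ± 0.187 (1.45e-04). Hey1, a Notch-induced repressor, fell to 6.67 CPM in FGFRi, against 22.4 CPM in DMSO (-1.60 ± 0.187, adjusted p = 4.87e-05 in edgeR). In HOM, 6 rose and 1 fell. Hey1 was among those that rose, at 29.1 CPM in HOM, against 19.8 CPM in WT and HET (0.572 ± 0.16, adjusted p = 0.0481 in edgeR). Against HET alone the change of Hey1 was 0.366 (adjusted p = 0.444 in edgeR). Zeb1 rose there by 0.795 ± 0.116 (adjusted p = 0.00111 in edgeR) and Mdfi, which holds myogenic factors in the cytoplasm, by 0.459 (adjusted p = 0.0327). Hes1, another Notch target, fell by 0.279 in HOM (adjusted p = 0.0446 in edgeR) and turned to 0.182 with scaling to the epithelium genes, which moves the median of all genes by 0.46. The call of Hes1 was lost without any 1 of the 6 libraries, and that of Mdfi without any but HOM 1.

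The other genes of fusion did not all follow Mymk and Mymx. Of 11 tested, 5 rose and 1 fell in FGFRi. Cav3, the muscle caveolin, rose to 2.94, 0.648 and 5.09 CPM in FGFRi, against 0.159, 0.156 and 0 CPM in DMSO (log2 change 4.49 ± 0.859, adjusted p = 0.00234 in edgeR). The adhesion protein Jam3 rose by 1.34 ± 0.222 (adjusted p = 7.39e-04 in edgeR) and Elmo1, a partner of the DOCK proteins in actin remodelling, fell by 0.552 (adjusted p = 4.27e-04 in edgeR). In HOM, 3 rose and 1 fell: Adgrb1, a receptor of phosphatidylserine, by 1.07 ± 0.201, Jam3 by 0.965 and Cdh15 as above, and Myof, a ferlin of membrane repair, fell by 0.556 (adjusted p of 0.00574, 0.0114, 0.00932 and 0.0278 in edgeR). None of these 4 HOM calls held without HOM 2, that of Jam3 was also lost without HOM 1, and that of Myof without any 1 library but WT 2.

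Genes of the acetylcholine receptor and endplate, some of which Myog is known to activate, formed the last list. Of 7 tested, 6 rose and 0 fell in FGFRi in edgeR, with 7 higher and 0 lower at an unadjusted p under 0.05, and 6 and 0 by DESeq2. Chrna1 was at 5.32, 1.51 and 6.09 CPM in FGFRi, against 0.478, 1.14 and 0.985 CPM in DMSO (log2 change 2.2 ± 0.492, adjusted p = 0.00555 in edgeR). Musk, the kinase that organises the endplate, rose by 3.0 ± 0.68 (adjusted p = 0.00606 in edgeR), and Chrng, the fetal receptor subunit, by 2.81 ± 0.666 (adjusted p = 0.00779), a call that was lost without FGFRi 3. In HOM, 2 of 7 rose. Chrna1 was at 2.72 and 3.81 CPM in HOM, against 1.51 and 1.93 CPM in HET and 0.146 and 0 CPM in WT, and rose by 3.02 ± 0.575 (adjusted p = 0.0063 in edgeR). Musk rose by 3.19 ± 0.742 (adjusted p = 0.0192 in edgeR), and both calls were lost without HOM 2, that of Musk also without HOM 1, HET 1 or WT 1. These changes take in a WT level near 0. The median of the 7 was 1.88 in HOM against WT and HET, and 0.432 against HET alone. In that last comparison edgeR called 0 of the 7, with 1 higher at an unadjusted p under 0.05 and 0 by DESeq2.

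**Figure D5:**
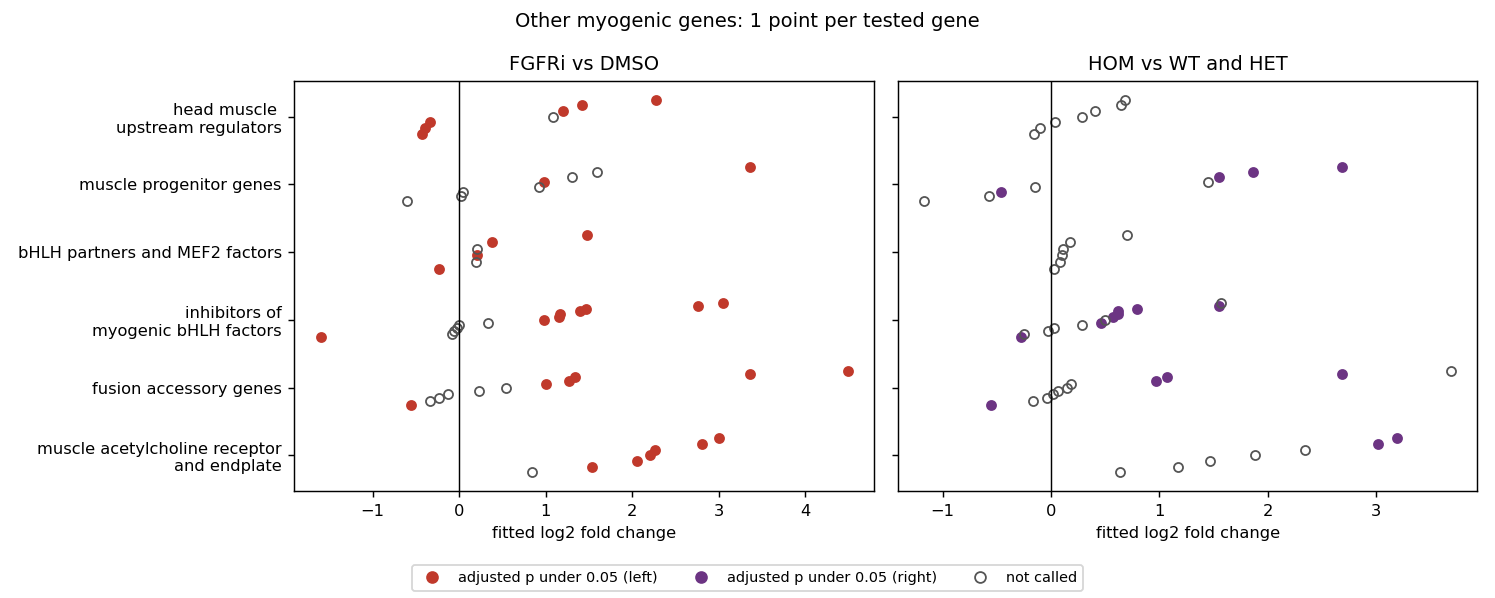
Fitted log2 change of each tested gene of the 6 lists in FGFRi against DMSO (left) and in HOM against WT and HET (right), with 1 point per gene, filled where the adjusted p was under 0.05. The endplate genes have a median of 2.2 on the left, and the bHLH partners 0.207.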

How the data were processed

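RNA was rRNA-depleted and sequenced from 12 libraries in 5 groups, all with batch label 1. The authors deposited raw counts per gene, made with bcl2fastq and STAR on GRCm39 per the submitters' processing notes. How reads were assigned to genes, with or without strand, and by which annotation is not given in the sources used here. Symbols were matched by Ensembl identifier to a GENCODE table for 52403 of 52636 features, and exon lengths and promoter windows come from annotations of GRCm38. From the deposited counts, genes passing edgeR's default filter (15859) were fitted with edgeR 4.0.16 (R 4.3.3), using TMM scaling, 1 coefficient per group over all 12 libraries, and quasi-likelihood tests with Benjamini-Hochberg adjustment at 0.05. HOM was compared with the average of its littermates' coefficients (WT, HET). The fit was tested on data simulated for FGFRi against DMSO only, and not for the HOM comparisons. Residual degrees of freedom were 7. Ratio intervals are exact at 95%, and likeness used log2(CPM + 0.5). Alternatives were other scalings, no filter, a prior count of 2, DESeq2 1.42.0, a replicate block, other sample sets, and leaving out each library. The members and lists were chosen with earlier results of these data known. Named list genes are, per list and direction, up to 3 called genes of lowest p in FGFRi against DMSO and in HOM against WT and HET. A few genes that the rule names are not reported here. Fgfr4 was named after its values were seen.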

Additional observations from a re-analysis of the deposited data

Results flagged for a closer look

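Of the values reported for the 8 genes, 2 had a single library far from the rest of its group by the gap-to-range criterion for 4 to 10 samples, which only the 4 joined HET and WT libraries are numerous enough to meet. Pax7 in HET 2, at 0.724 CPM (9 counts), lay far above the other 3. Myf5 in HET 2, at 0.161 CPM (2 counts), was under that library's floor of 3 counts, 0.241 CPM, and the other 3 had 0 counts. The criterion marks about 1 group in 20 by chance, but where the other values are all 0 any count meets it. The joined controls hold unlike groups, and HET 2 also had the higher muscle list sum of the HET libraries, 254 CPM, against 138 CPM in HET 1. Its part in these values was not tested.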

How the results depend on the processing

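The 5 members in the fit were Pax7, Myod1, Myog, Mymk and Mymx. They kept a positive change in FGFRi against DMSO and in HOM against WT and HET under each alternative that held them. Pax7 and Mymx dropped out of the FGFRi fit with only the groups compared. The size of the change moved: in HOM the fitted log2 changes were 2.92 to 4.19, but 0.485 to 1.31 with HET alone as controls. Pax3, Myf5 and Myf6 were not in the main fit, and Pax3 in HOM was below HET (ratio of means 0.32) but above WT (1.39). The summed level in HOM over its controls (1.57, log2) was 5.97 with WT alone and 0.606 with HET alone as controls, and 1.16 to 2.49 with each library left out. In FGFRi over DMSO it was 2.62 to 3.5 with each library left out. Genes called in FGFRi against DMSO (3245) numbered 1303 with library totals and 7925 with scaling to the epithelium genes, and 1896 to 3099 with each library left out. In HOM against WT and HET (933) they numbered 9521 with epithelium scaling, 1449 without a filter, 1406 with only the groups compared, 237 with HET alone, and 140 to 658 with each library left out. In HET against WT (194) they numbered 473 with epithelium scaling, 655 without a filter and 25 to 195 with each library left out. In DMSO against WT (358) they numbered 797 without a filter and 110 to 370 with each library left out. List genes that rose in FGFRi (24) numbered 40 with epithelium scaling and 17 to 27 with each library left out. Those that rose in HOM (12) numbered 34 with epithelium scaling, 19 without a filter, 1 to 9 with each library left out, and 0 with HET alone in edgeR, where 6 were higher at an unadjusted p under 0.05 and DESeq2 called 1. List genes that fell in FGFRi (6) numbered 1 with library totals and 1 with epithelium scaling. Those that fell in HOM (3) numbered 1 with HET alone, 1 with the replicate block and 0 to 1 with each library left out, where 2 to 6 were lower at an unadjusted p under 0.05. They numbered 0 in edgeR with library totals and 0 with epithelium scaling, each with 0 at an unadjusted p under 0.05, against 2 by DESeq2 with its own size factors. The causes were not tested. Epithelium scaling moved the median of all genes by 0.419 in FGFRi and 0.46 in HOM, and library totals moved it by 0.147 in HOM.

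Same-numbered FGFRi and DMSO libraries did not deviate together (r of -0.117 to -0.025). Within the deletion series r was -0.147 to -0.044, but in groups of 2 the deviations mirror each other, so r says little there. The highest values, 0.255 and 0.225, were between DMSO and HET, which belong to different experiments. The numbers are not taken as pairs. With the replicate block 2837 genes were called in FGFRi against DMSO, 769 in HOM against WT and HET, 163 in HET against WT and 244 in DMSO against WT, and 19 and 9 list genes rose in FGFRi and HOM. With the WT numbers crossed, a fit chosen after seeing the data, the block gave 825 genes and 10 list genes in HOM. A library left out of a group of 2 leaves the other to be assumed as variable as the rest. Depth limits Pax3, Myf5 and Myf6, which had at most 17 counts in any library.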

Other observations

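Myof, the ferlin of the fusion list, was higher in HET than in HOM and WT. It was at 16.6 and 18.3 CPM in HOM, against 44.7 and 43.3 CPM in HET and 16.3 and 13.6 CPM in WT, so both HET libraries stood above all HOM and WT libraries. It was the only gene of the 6 lists called between HOM and HET (log2 change -1.33 ± 0.153, adjusted p = 3.19e-04 in edgeR), and it rose in HET against WT (1.55 ± 0.16, adjusted p = 1.26e-04 in edgeR). In the other experiment it was at 34.9, 32.5 and 32.2 CPM in FGFRi, against 20.7, 30.9 and 32.0 CPM in DMSO, which did not pass (0.231 ± 0.13, adjusted p = 0.236 in edgeR). DMSO, also wild type, averaged 27.9 CPM, against 14.9 CPM in WT (0.904 ± 0.154, adjusted p = 0.00466 in edgeR), the 1 gene of the 6 lists called between them. Myof thus ordered the groups unlike Mymk and Mymx, which were at 0 counts in WT and higher in HOM than in HET. Myof was singled out after its values were seen.

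The other list genes that rose in HET against WT were Cdh15 (3.97), Zeb1 (0.781) and Chrna1 (4.16, log2 changes), and together with Myof they make 4 of the 50 tested, where 0.851% of all genes were called higher. Mesenchyme genes rose in the same comparison, 5 of the 15, and the HET and WT libraries all lacked the high Xist of the HOM libraries. The part of either in these calls was not tested.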
